A study of Mus musculus with 4 samples.

Results

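CstF64 crosslinks were examined over 2 intervals of mouse chromosome 13 that hold the replication-dependent Hist1 gene clusters, one of 328 kb from 21807000 to 22135000 and one of 240 kb from 23620000 to 23860000 in the mm9 build. All CLIP alignments with their midpoint in these intervals were taken on both strands and chained into islands wherever neighbouring midpoints on 1 strand lay at most 50 nt apart, without regard to their number. This gave 420 islands of 703368 in the genome. Polyadenylated ends were taken from every 3'READS position of the same intervals, 268 in all, and a stretch of 1 Mb of the same chromosome from 24500000 to 25500000 served as background.

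The CLIP-seq libraries are 2 replicates of CstF64 immunoprecipitated with a monoclonal antibody from proliferating C2C12 cells, a mouse myoblast line, irradiated with UV light in 3 dishes of 15 cm. RNA trimmed with RNase T1 was recovered from complexes of 85 to 150 kDa. The 3'READS libraries, 1 per capture oligo, come from a commercial mix of RNA from 11 mouse cell lines, selected once for poly(A) RNA, fragmented, and captured on beads with either the CU5T45 oligo, from which RNase H released it, or oligo(dT)10-25. RNA without a poly(A) tail is therefore depleted from the 3'READS libraries by their preparation, and not from the CLIP libraries. The cells of the CLIP libraries are therefore not those of the 3'READS libraries, and in such bulk RNA fewer cells making a transcript and less of it per cell cannot be told apart. The labels do not say whether the CLIP replicates came from separate cultures, no control immunoprecipitation was used here, and markers of the cell types were not analysed here.

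Replication-dependent histone mRNAs encode the core and linker histones that package newly copied DNA. They are the metazoan mRNAs that normally lack a poly(A) tail: their 3′ end is made by a single cut a few bases after a conserved stem-loop, which is bound by the stem-loop binding protein, with the U7 snRNP pairing to an element downstream. CstF64 is known best as the subunit of the cleavage stimulation factor that binds U- and GU-rich RNA beside poly(A) sites, and it has also been described as part of the complex that cuts histone pre-mRNA. Some histone genes can in addition be polyadenylated at sites farther downstream.

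The stem-loop is the feature that sets these mRNAs apart, and it is shown for 1 gene of each histone class. The genes are the first by name in their class whose annotated transcript holds the letters GGCTCTTTT or GGCCCTTTT, then 1 base of any kind, then AGAGCC or AGGGCC respectively, searched on the transcript strand only since the RNA carries the stem-loop. Sequences are from the GENCODE vM21 transcripts of the GRCm38 build, 5′ to 3′ in DNA letters, with 5 bases on each side, and the capitals mark the stem-loop.
Hist1h1c, a linker histone: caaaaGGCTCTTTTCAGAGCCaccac
Hist1h2ab, histone H2A: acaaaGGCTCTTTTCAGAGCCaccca
Hist1h2bb, histone H2B: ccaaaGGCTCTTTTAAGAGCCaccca
Hist1h3a, histone H3: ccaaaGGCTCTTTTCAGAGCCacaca
Hist1h4c, histone H4: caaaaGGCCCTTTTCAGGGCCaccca

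These letters are rare outside the histone genes. In that annotation 33 of the 53 Hist1 genes of the chromosome 13 blocks have a transcript that holds them, 26 with the first form and 7 with the other, all 7 of the latter being H4 genes. Of all 55450 annotated genes 46 do (0.083%). In 17 of the 33 genes the annotated transcript ends within 60 nt of the stem-loop, as in Hist1h2ab with 11 nt, Hist1h2bb with 23 nt and Hist1h3a with 37 nt. In 15 it runs on for more than 100 nt, as in Hist1h1c with 840 nt and Hist1h4c with 454 nt. A hexamer AATAAA, the usual poly(A) signal, lies in the last 60 nt of a transcript of 9 of the 53 genes. It was not counted over all annotated genes, so these 9 are read neither as few nor as many. The other 20 genes show no match to these letters in the annotated transcripts, which says nothing of the sequence past their ends.

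The annotation and the deposited files are of different builds, so no island was given a gene name and no island was placed in an exon, intron or UTR. By gene order alone, the annotated Hist1 genes form blocks of 24 genes over 327.9 kb (Hist1h2bl to Hist1h2bj) and of 29 genes over 233.4 kb (Hist1h4h to Hist1h1a). The first block also holds 31 tRNA genes and 9 other non-histone genes of the RefSeq annotation, and the other block 0 tRNA genes and 4 others, so not every alignment in the intervals need come from a histone gene. Many histone genes are near copies of each other. Of all 36 nt windows of the longest Hist1 transcripts, 58.3% occur in no transcript of another gene. This share was 92.0% in the H1 genes, 57.7% in H4, 42.6% in H2B, 41.9% in H3 and 41.7% in H2A, and it was under 50% in 32 of the 53 genes. The labels do not say how alignments with several matches in the genome were treated, which leaves the levels at single copies uncertain.

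CstF64 alignments were dense over both intervals. Replicate 1 held 1079 distinct alignments in them, or 1.9 per kb, and replicate 2 held 1399, or 2.46 per kb. In the background interval there were 497 and 612, or 0.497 and 0.612 per kb. The density was thus 3.82 times the background in replicate 1 (95% exact conditional binomial interval 3.43 to 4.26) and 4.02 times in replicate 2 (3.66 to 4.43), and 3.93 times with both summed. All intervals given here, for CLIP and 3'READS alike, cover counting error at most. The 3'READS reads can include copies made by PCR, which are not independent molecules, so their intervals can be too narrow. CLIP was counted as distinct alignments, which leaves out copies of the same start, end and strand. The size of the ratio depends on the stretch set against it: against the 200 kb on the outer side of each interval it was 16.5 (12.3 to 22.7) in replicate 1 and 17.3 (13.3 to 22.9) in replicate 2.

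Among stretches of equal length on chromosome 13 the intervals were in the upper part, and not at the top. Of 363 tiles of 328 kb, 22 held more replicate 1 alignments than the 469 of the 328 kb interval, and 17 held more in replicate 2, where the interval had 637. The tiles had medians of 36 and 48. Of 496 tiles of 240 kb, 6 held more than the 240 kb interval in either replicate, which had 610 and 762 alignments beside medians of 13 and 15. The tiles take no account of how many genes they hold.

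**Figure D1:**
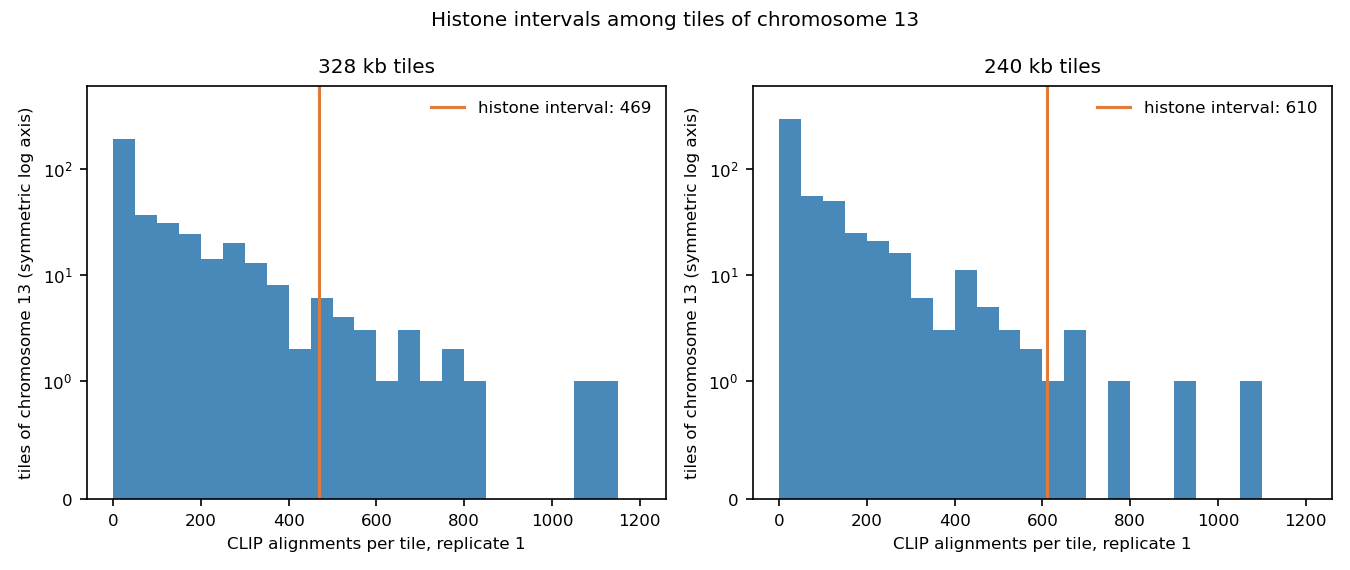
Number of chromosome 13 tiles (vertical, symmetric log axis) by their CLIP alignments in replicate 1 (horizontal), for tiles of 328 kb (left) and 240 kb (right), with the histone interval as a line. The lines at 469 and 610 alignments lie in the right-hand tails, with 22 of 363 and 6 of 496 tiles beyond them.

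Within the intervals the alignments were gathered in groups, with long stretches between them. The average density of the chromosome was 0.372 and 0.456 alignments per kb in the replicates. In the 328 kb interval no unit of 10 or more alignments (islands joined at gaps of up to 300 nt on 1 strand, a grouping chosen after seeing the data) lay between 21878766 and 22128131. This stretch of 249.4 kb held 90 and 123 alignments in the replicates, or 0.361 and 0.493 per kb, beside 4.82 and 6.54 per kb in the remaining 78.6 kb. In the 240 kb interval the longest such stretch ran over 61.7 kb from 23714427 to 23776101, with 11 and 18 alignments or 0.178 and 0.292 per kb, beside 3.36 and 4.17 per kb elsewhere. The stretches were picked for holding no unit, so their density is a description. The first of them was near the average of the whole chromosome and the other below it. Beside the median tile neither was sparse. The 90 and 123 alignments of the first exceeded the medians of 36 and 48 in 328 kb tiles. The 11 and 18 alignments in 61.7 kb stand beside medians of 13 and 15 in 240 kb tiles. The annotated blocks have stretches without a Hist1 gene of up to 197.6 kb and 58.9 kb, in the same order, and the positions of these and of the stretches without a unit were not matched.

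**Figure D2:**
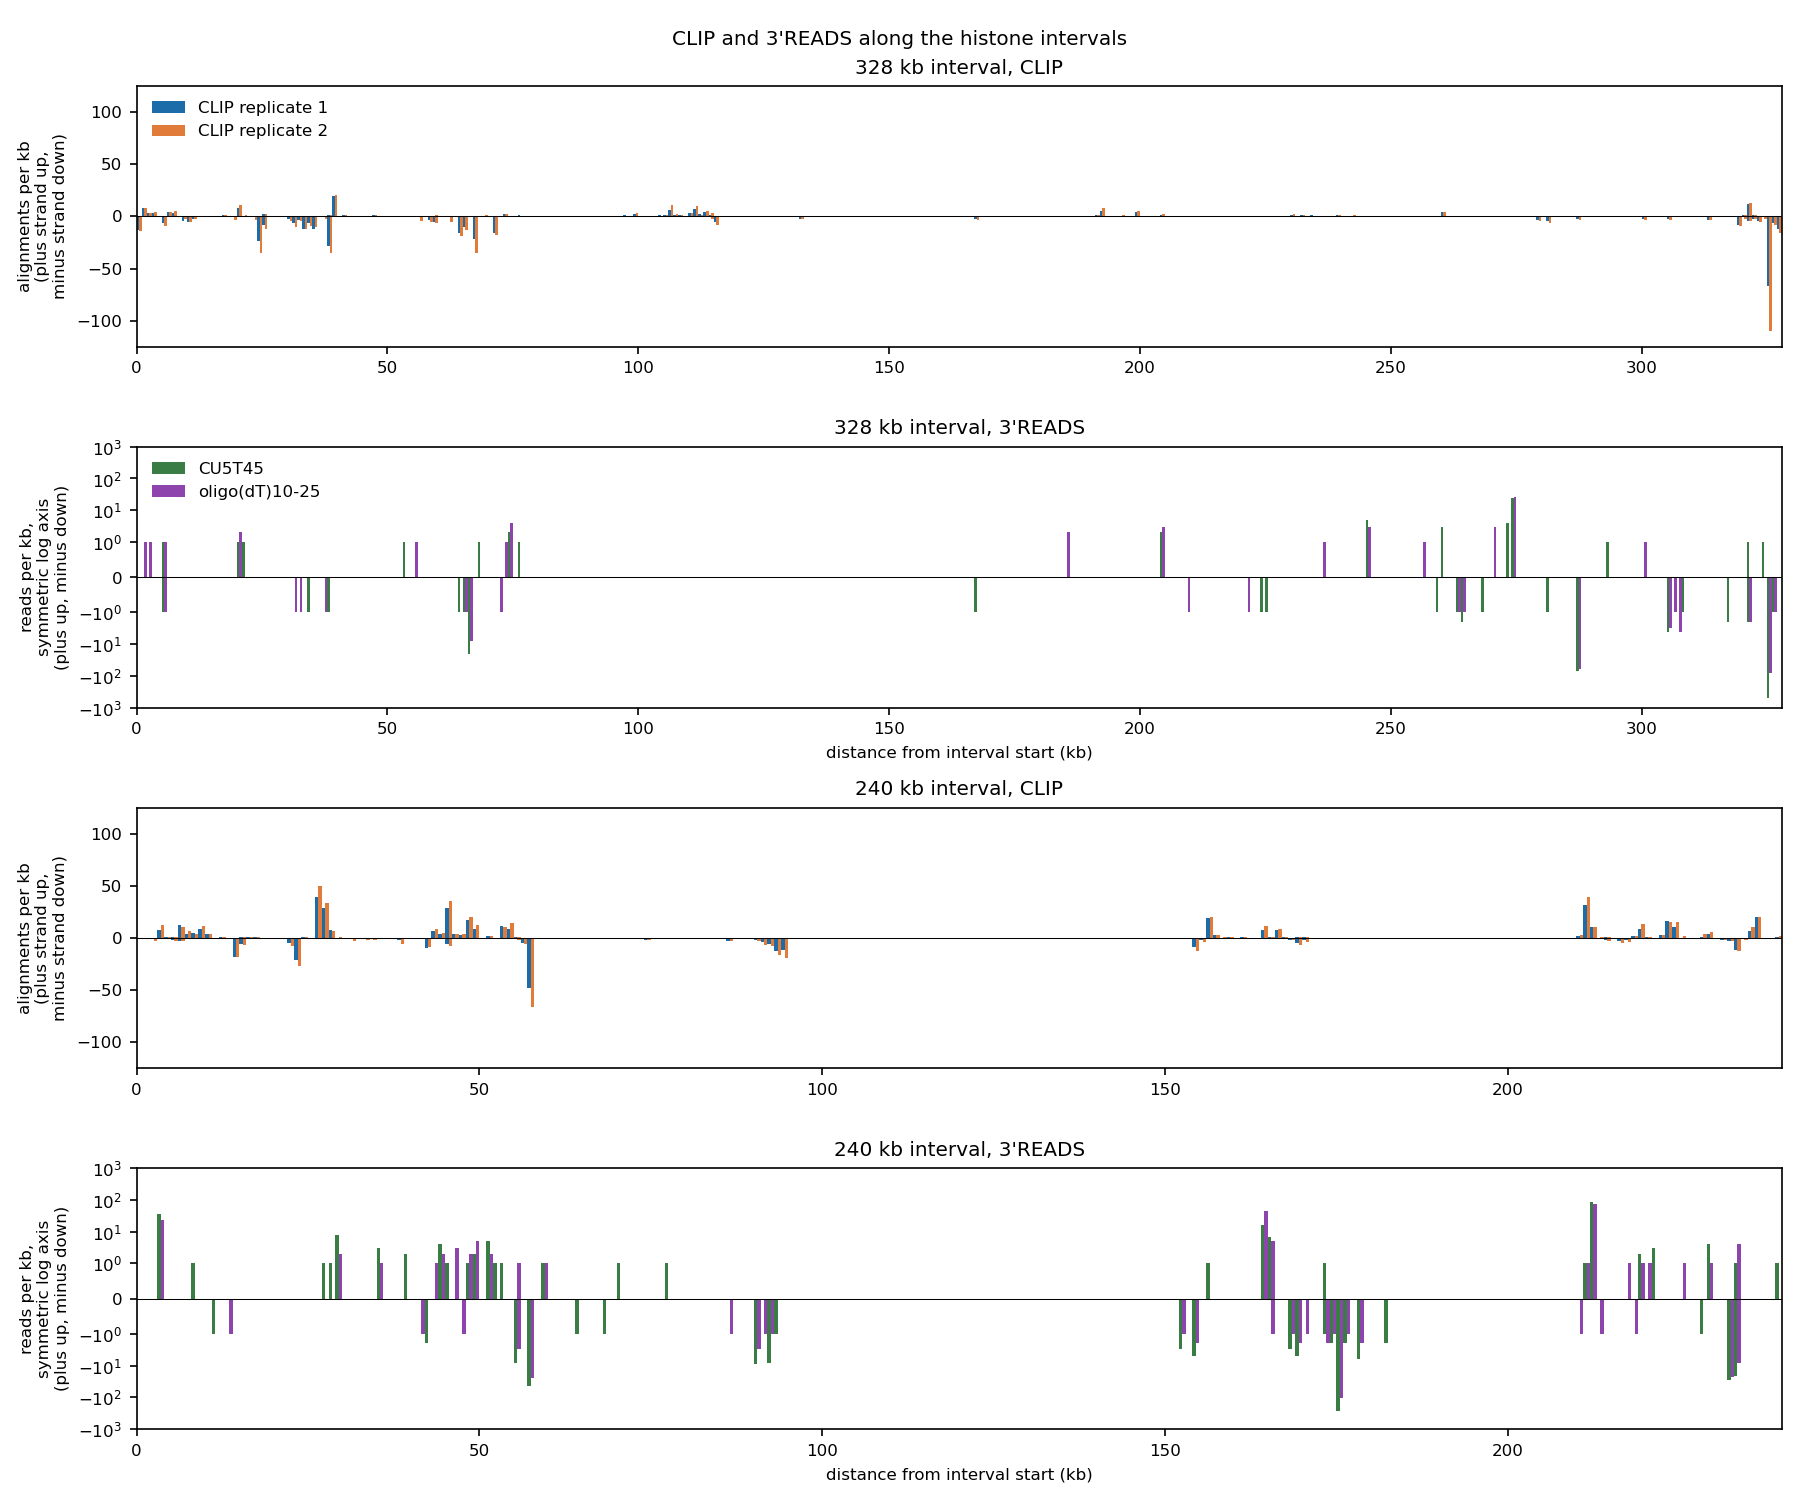
CstF64 CLIP alignments per kb and 3'READS reads per kb (symmetric log axis) along the 328 kb and 240 kb intervals, against the distance from the interval start in kb, with the plus strand upward and the minus strand downward. The CLIP bars of both replicates rise at the same places. Along 249.4 kb of the 328 kb interval most bars are low or absent, with an average of 0.361 and 0.493 per kb. Single bars in that stretch still reach 8 alignments in replicate 1 and 11 in replicate 2.

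The strands were used unequally, and in opposite ways. In the 328 kb interval the minus strand held 348 and 489 alignments and the plus strand 121 and 148. In the 240 kb interval the plus strand held more, 384 and 459, against 226 and 303 on the minus strand. The replicates gave the same order in each interval. The annotated Hist1 genes are split as 11 on the plus and 13 on the minus strand in the first block and as 17 and 12 in the other.

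Of the 420 islands, 17 had 10 or more distinct alignments in the lower replicate, 8 in the 328 kb interval and 9 in the 240 kb interval. That is 4.05% of the islands, beside 1.05% of the 703276 nuclear islands and 3.03% (8 of 264) in the background interval. Per 100 kb there were 2.99 such islands in the histone intervals and 0.8 in the background interval. The 17 islands held 33.3% of the alignments of the intervals in replicate 1 and 34.5% in replicate 2. Among nuclear alignments the share in islands of that size was 13.8% and 13.4%, and in the background interval 23.1% and 22.4%. They were narrow, with midpoints spread over 8 to 164 nt and a median of 74 nt. At the other end, 54 of the 420 islands were single alignments, and 357 had an alignment in both replicates. These counts over all islands of the genome are not given here, so nothing particular to the histone intervals is read from them.

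The largest island of the 328 kb interval lay near its end, on the minus strand from 22132666 to 22132796, with 47 alignments in replicate 1 and 79 in replicate 2, which are 10% and 12.4% of all alignments of that interval. A smaller island of 10 and 15 alignments followed it downstream, from 22132521 to 22132594, and a further one of 7 and 9 from 22132334 to 22132406. All 3 belong to a minus-strand unit of 1170 nt, from 22131627 to 22132796, with 68 and 112 alignments.

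The other large minus-strand islands of this interval lay in its first part, before the stretch without a unit. The island from 21831829 to 21831896 had 21 alignments in replicate 1 and 32 in replicate 2. The island from 21874747 to 21874781 had 19 and 31, and that from 21845436 to 21845541 had 17 and 26. All of these had more in replicate 2, the deeper library. An island from 21878679 to 21878766 had 15 and 17 alignments, and a narrow one from 21842342 to 21842360 had 9 and 8, just under the minimum.

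Among the 10 largest islands of this interval 2 were on the plus strand. That from 21845994 to 21846018 had 19 and 21 alignments, and that from 22128131 to 22128245 had 11 and 12. The first of these begins 298 nt from the upper edge of a minus-strand unit (21844734 to 21845696, 29 and 37 alignments), and the strands point away from each other. It was the only such pair of units within 1000 nt in the 2 intervals.

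In the 240 kb interval the largest island was on the plus strand from 23646963 to 23647066, with 49 alignments in replicate 1 and 66 in replicate 2. It opened a unit of 1495 nt, the longest of all, with 75 and 89 alignments up to 23648457. The next was on the minus strand from 23677084 to 23677221, with 39 and 55. A plus-strand island from 23665350 to 23665372 packed 28 and 34 alignments into 23 nt. These 3 islands and the largest one of the 328 kb interval were the only ones with 28 or more alignments in the lower replicate.

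The remaining large islands of the 240 kb interval were between 9 and 23 alignments in either replicate. On the minus strand these were the islands from 23643078 to 23643134 with 19 and 23, and from 23634728 to 23634861 with 16 in both replicates. On the plus strand the widest island, from 23831376 to 23831539 over 164 nt, had 15 and 19. The islands from 23776101 to 23776119 and from 23668451 to 23668485 had 13 in both replicates, and 11 and 14. At the minimum itself was the narrowest, from 23856299 to 23856306 over 8 nt with 10 in both replicates, and the island from 23844626 to 23844724 fell just short with 9 and 12.

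**Figure D3:**
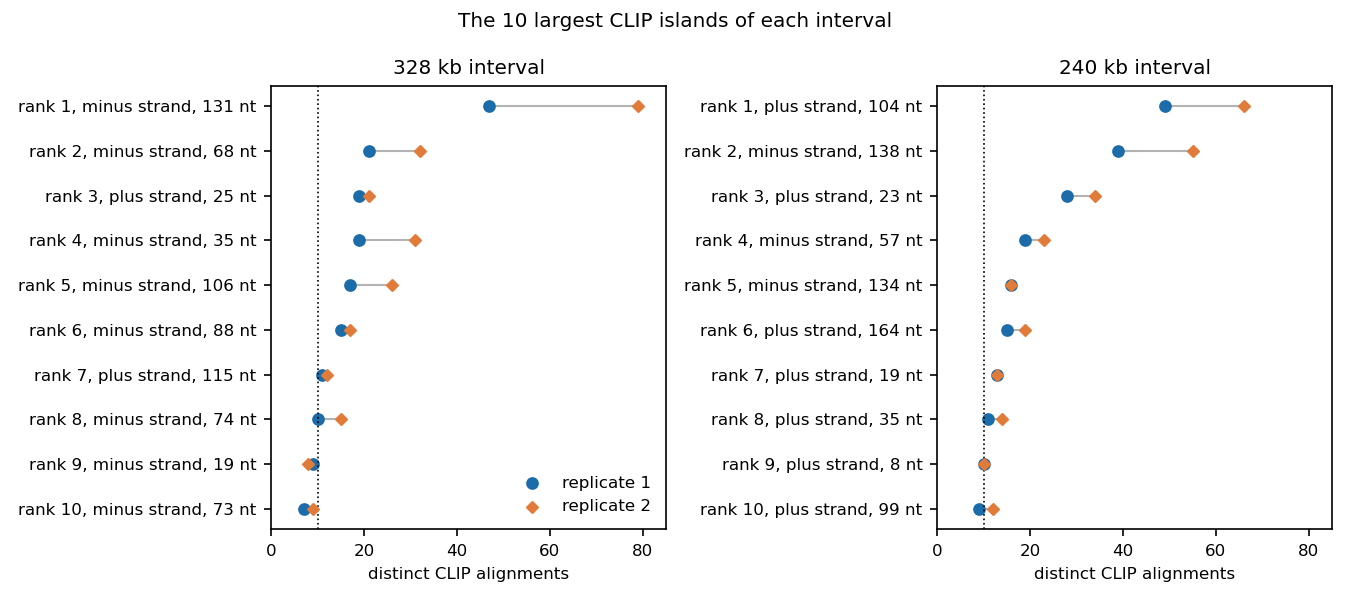
Distinct CLIP alignments (horizontal) in replicate 1 (circles) and replicate 2 (diamonds) for the 10 largest islands of each interval, ranked by the lower replicate, with strand and width. The dotted line marks 10 alignments, and the largest islands reach 47 and 79 alignments in the 328 kb interval and 49 and 66 in the 240 kb interval.

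The same 17 islands were well filled in both replicates, though not in the same order, since the island at 23646963 had most alignments in replicate 1 and that at 22132666 in replicate 2. Of the 17 islands, 14 had more alignments in replicate 2, 3 had equal numbers and 0 had more in replicate 1, and in sum replicate 2 had 1.35 times the alignments of replicate 1, beside 1.23 times over the whole libraries. Their counts differed by less than independent sampling would give (chi-square 5.33 at 16 degrees of freedom), though the islands were chosen on these same counts. Of the 846 replicate 1 alignments shorter than 50 nt in the intervals, 90.8% were identical in start, end and strand to one of replicate 2. The replicates were therefore counted as 1 sample, and each is given singly with no SD. Where a value is alike in both replicates, or without either, that is no independent check of it. On the strand opposite to the 17 islands there were 0 alignments in either replicate, beside 359 and 483 on the islands' own strand. With a limit of 3 alignments for a count of 0, this allows a share of up to 0.836% and 0.621%.

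At the wider grouping of 300 nt the intervals held 28 units of 10 or more alignments, 12 in the 328 kb interval (10 on the minus strand) and 16 in the 240 kb interval (10 on the plus strand). They were 19 to 1495 nt wide with a median of 555 nt, covered 17.2 kb, and held 59.5% and 58.3% of all alignments in the intervals. Of the 28 units, 24 were made of more than 1 island, with up to 9 islands in a unit. On the opposite strand within the units lay 4 alignments in each replicate, beside 642 and 815 on the units' strand. The same shares and counts for nuclear units are not given here, so these describe the 28 units only. Units without a dominant island included a plus-strand unit from 23855642 to 23856704 with 27 and 30 alignments over 9 islands and a minus-strand unit from 21871382 to 21872418 with 24 and 30 over 8 islands.

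Each of the 17 islands was also cut into 3 equal parts along the RNA. The part nearest the 3′ end held 30.9% of the alignments in replicate 1 (95% exact interval 26.2 to 36) and 27.1% in replicate 2 (23.2 to 31.3). In nuclear islands of 10 or more alignments it held 34.7% and 34.1%, which is inside the interval in replicate 1 and above it in replicate 2. With both replicates summed it was 28.7% (25.7 to 31.9), below the 34.4% of nuclear islands. These intervals are too narrow, since alignments of an island are not independent and many occur in both replicates. Whether the histone islands differ is therefore not decided here. At the width of 150 nt set for this measure only 1 histone island remained (23831376 to 23831539), with 5 of 34 alignments of both replicates in that part (14.7%), and the wider set was chosen after seeing this.

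Polyadenylated ends were present in the intervals at a moderate level, and most of the reads came from a few sites. CU5T45 had 1272 reads there, or 189 CPM (reads scaled to the library total), and oligo(dT)10-25 had 590, or 169 CPM. Of the 268 positions 160 had a single read in both libraries together, and 75 were seen with both oligos. Positions chained within 24 nt gave 14 clusters of 10 or more reads, 4 in the 328 kb interval and 10 in the 240 kb interval, which held 83.9% of the reads. The share of nuclear reads in such clusters is not given here, so this is a description and no trait particular to the intervals. Per kb, reads were 0.753 times the background interval with CU5T45 (0.705 to 0.805) and 0.663 times with oligo(dT)10-25 (0.602 to 0.729). Against all of chromosome 13 outside the intervals the direction turned, to 2.18 and 1.83 times. The same turn did not occur for CLIP, at 5.21 and 5.51 times in the replicates.

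Relative to polyadenylated reads the intervals were rich in CLIP. Both replicates together had 2478 alignments beside 1862 3'READS reads of both oligos, or 1.33 alignments per read. The 840 alignments found in both replicates count in each, and distinct alignments are set beside reads that can include copies. The values that follow were made in the same way. In the background interval the figure was 0.244 (1109 alignments, 4540 reads) and over all nuclear chromosomes 0.248. Chromosome 13 as a whole lay between these figures and that of the intervals. It held 44691 and 54883 alignments in the CLIP replicates. Its 3'READS reads were 124342 and 68457, with the oligos in the order given above. The size of the excess thus depends on the stretch set against it. Since the CLIP and 3'READS libraries come from different cells, the part of RNA abundance in this was not tested.

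Most large CLIP islands had few or no polyadenylated ends. Of the 17 islands, 11 had 0 reads of either oligo between the island and 100 nt past its 3′ end, 4 had 1 or 2 reads, and 2 had 3 or more (11.8%, 95% exact interval 1.46 to 36.4). Among 7371 nuclear islands of 10 or more alignments, 26.5% had 3 or more reads, a share that lies inside the interval of the histone islands. A lower share in the histone islands was thus not detectable with 17 of them. The nuclear share rose with the size of the island, from 22.4% at 10 to 19 alignments to 57.1% at 50 or more, and of the histone islands 1 of the 12 with 10 to 19 alignments and 1 of the 3 with 30 to 49 had such reads, beside 0 of 2 between them. For the 28 wider units, with 300 nt past their end, 6 had 3 or more reads (21.4%, 8.3 to 41) beside 37.0% of nuclear units. Islands are parts of the same transcripts in some cases and are not independent replicates. Large islands without any read included those at 23646963, 21831829, 21874747 and 21845994. With 0 reads the limit is 3 reads in each library, or 0.445 CPM with CU5T45 and 0.861 CPM with oligo(dT)10-25.

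Both islands with 3 or more reads lay at a cluster of cleavage positions. The most used position of the intervals, 22132504 on the minus strand, had 425 CU5T45 and 65 oligo(dT)10-25 reads, and made up 26.3% of all reads there. Its cluster of 8 positions had 491 and 79 reads. The island of 10 and 15 alignments ended 17 nt upstream of it and reached up to 90 nt upstream, while the largest island of the interval, with 47 and 79 alignments, lay 162 to 292 nt upstream. Downstream, an island of 7 and 9 alignments lay 98 to 170 nt away. In the 100 nt upstream of this position there were 10 and 15 alignments, and in the 100 nt downstream 0 and 1.

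At the other one, on the minus strand at 23677185, the cleavage position lay inside the island. Its cluster of 10 positions had 44 CU5T45 and 22 oligo(dT)10-25 reads. The island of 39 and 55 alignments ran from 36 nt upstream of the most used position to 101 nt downstream. Upstream within 100 nt there were 18 and 30 alignments, and downstream 20 and 25, so both sides were occupied in both replicates.

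At 5 further clusters the alignments within 100 nt lay on 1 side only in both replicates, upstream at 4 and downstream at 1. The share of nuclear clusters with 1 side only is not given here, so nothing particular to the histone intervals is read from these counts. The latter, on the plus strand at 23832231, with 85 and 71 reads, had 0 alignments in the 100 nt upstream and 6 in the 100 nt downstream in each replicate. These belong to an island that starts 13 nt past the position, and an island of 8 and 9 alignments lay 323 to 359 nt upstream. At 23853720 on the minus strand, with 20 and 7 reads, 8 and 9 alignments lay within 100 nt upstream and 0 downstream. The other 3 with upstream alignments only had few of them, 2 and 3 at 21873976, 2 and 3 at 23710840, and 1 in each replicate at 23785239.

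Of the 14 clusters, 4 had no CLIP alignment within 100 nt, among them the one ranking next to the largest in reads. It lay on the minus strand from 23795631 to 23795719 with 17 positions over 89 nt, and had 252 CU5T45 and 102 oligo(dT)10-25 reads. A further cluster of 16 and 5 reads lay beside it, from 23795522 to 23795528. The nearest same-strand alignment was 5420 nt and 5223 nt downstream of them. The cluster at 22094043 on the minus strand (53 and 62 reads) had its nearest alignments 239 nt upstream, and that at 22081445 on the plus strand (25 and 25 reads) 14368 nt upstream. These 4 clusters are ends of RNA in the cell line mix beside which C2C12 cells gave no crosslink, and whether C2C12 cells make these RNAs was not tested.

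**Figure D4:**
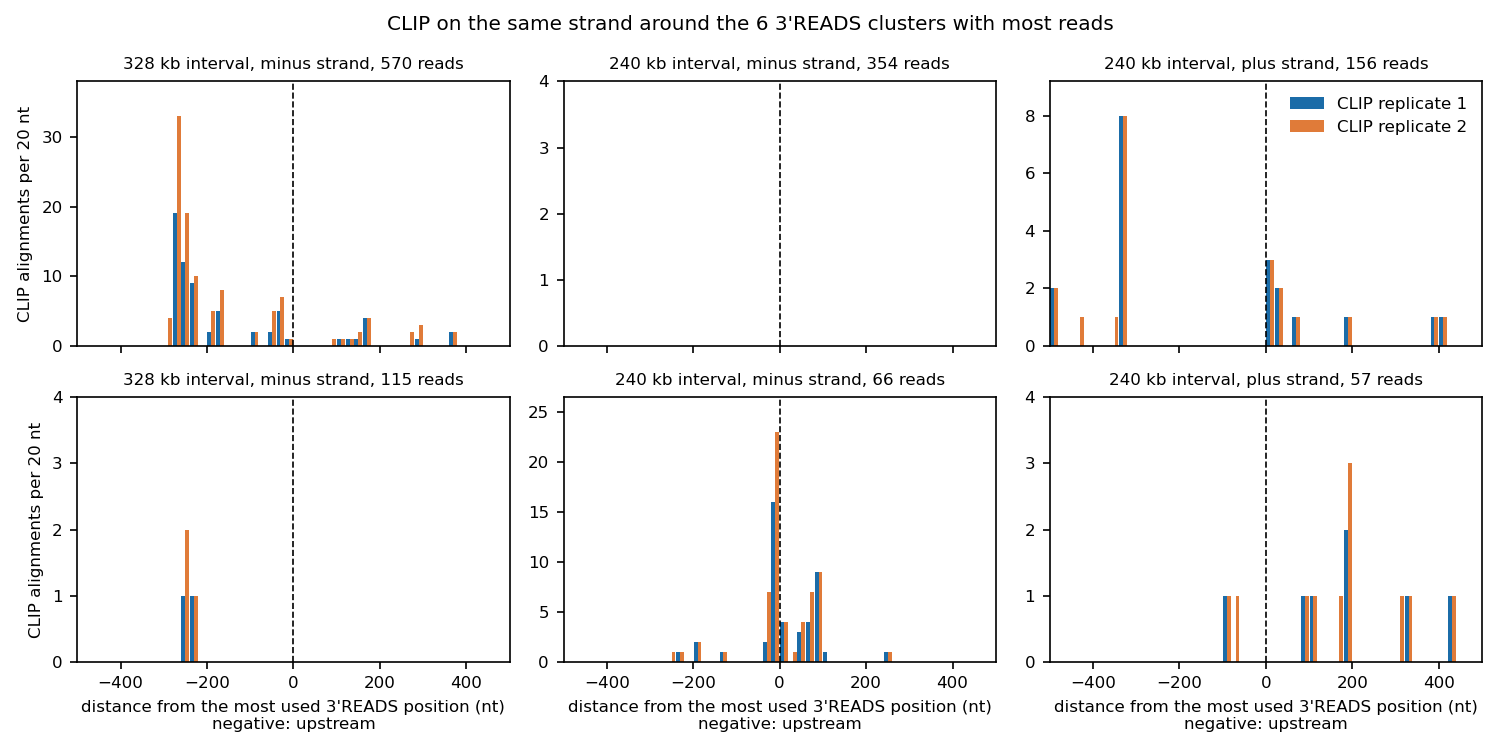
CLIP alignments on the same strand per 20 nt (vertical) by distance in nt from the most used 3'READS position (dashed line, negative is upstream) at the 6 clusters with most reads, for replicate 1 and replicate 2. Within 100 nt, alignments lie almost wholly upstream at the cluster of 570 reads and on both sides at that of 66 reads, and none lie within 500 nt at that of 354 reads.

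Of the 14 clusters, 10 had a CLIP alignment within 100 nt on the same strand in both replicates (71.4%, 95% exact interval 41.9 to 91.6). The background is 45.3% of 28416 nuclear clusters of 10 or more reads, which lies inside that interval, and 14 of 37 (37.8%) in the background interval. Summed over the 14 clusters, 44 and 66 alignments lay in the 100 nt upstream and 29 and 35 in the 100 nt downstream, with 0 on the opposite strand. The same sums over nuclear clusters are not given here, so these describe the 14 clusters only. The cluster at 23677185 holds the largest part of both sums, with 18 and 30 of the upstream and 20 and 25 of the downstream alignments.

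The reads were shared unequally between the oligo libraries at some ends, in both directions. Over the intervals the share of CU5T45 reads was 1.11 times that of oligo(dT)10-25 (95% exact conditional binomial interval 1.01 to 1.23). It was 1.52 times in the 328 kb interval (1.3 to 1.78) and 0.868 times in the 240 kb interval (0.761 to 0.99). A single position decides the direction of the value of 1.11 over both intervals, since without position 22132504 it was 0.834 (0.747 to 0.932). With each position counted once it was 1.01 (0.811 to 1.26). There is 1 library per oligo, so these values compare libraries and have no replicate check.

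Among the 14 clusters, 2 had a higher share in CU5T45 with an interval wholly above 1, beside 18.3% of the 28416 nuclear clusters. In 4 the interval was wholly below 1, beside 19.0% of nuclear clusters, and in the remaining 8 it spanned 1. With 14 clusters, nothing particular to the histone intervals is read from these counts. The cluster at 22132504 was 3.21 times as high in CU5T45 (2.53 to 4.13), at 72.9 and 22.7 CPM. The broad cluster peaking at 23795719 was 1.28 times as high (1.01 to 1.62). The single position 23784356 on the plus strand was the most unequal in the other direction, with 6 CU5T45 and 42 oligo(dT)10-25 reads and a ratio of 0.0738 (0.0257 to 0.175). The clusters at 22094043, 22081445 and 23832231 had ratios of 0.442 (0.3 to 0.648), 0.517 (0.285 to 0.938) and 0.619 (0.446 to 0.86). At 23677185, where the CLIP island spans the site, the ratio was 1.03 (0.606 to 1.81). The cluster at 23852557, with 28 and 22 reads, had a ratio of 0.658 (0.363 to 1.21) and 3 alignments within 100 nt in each replicate.

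**Figure D5:**
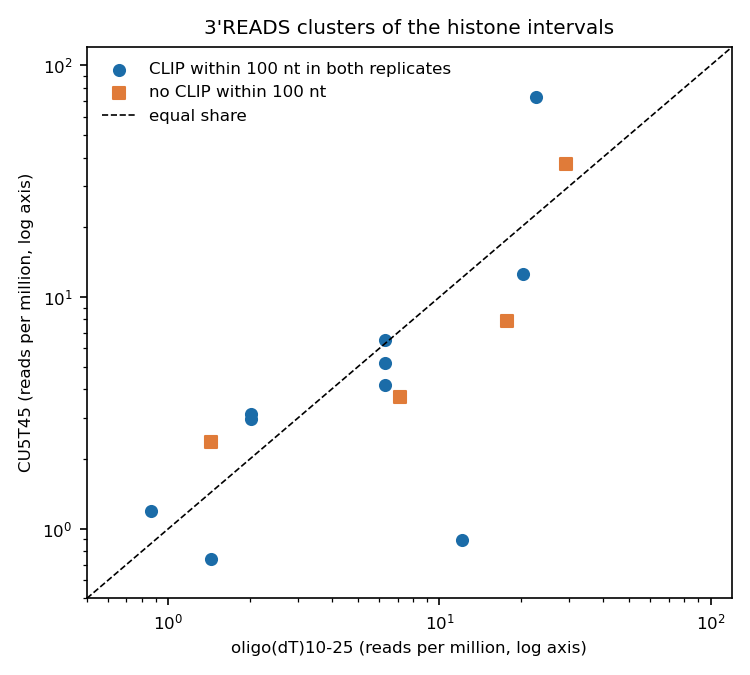
CU5T45 against oligo(dT)10-25 reads in CPM (log axes) at the 14 3'READS clusters of 10 or more reads, with circles for clusters that had CLIP within 100 nt in both replicates and squares for those without. The cluster with 72.9 and 22.7 CPM lies above the line of equal share and that with 0.89 and 12.1 farthest below it.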

How the data were processed

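Per the labels, the samples are 2 CLIP-seq replicates of CstF64 in C2C12 cells and 2 3'READS libraries of a mix of cell lines, 1 per oligo. The deposited values are whole read counts, per distinct alignment (start, end, strand) for CLIP and per cleavage position for 3'READS, with no normalization stated per the labels. The submitters' processing notes name mm9, Bowtie and Novoalign, without versions. Filters are not given in the sources used here. Whether coordinates count from 0 or 1 is not stated, so positions are exact to within 1 nt.

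The CLIP libraries held 1101047 and 1352122 distinct alignments, and the 3'READS libraries 6738355 and 3482826 reads. CLIP was counted as distinct alignments by midpoint, in Python 3.11.15 (pandas 2.3.3, numpy 2.4.6), with scipy 1.17.1 for intervals and matplotlib 3.10.9 for figures. Shares have Clopper-Pearson and ratios exact conditional binomial 95% intervals. No p-value was computed, because no group had independent replicates. The intervals, measures and lists were chosen with earlier results of these data known. Islands named are the 10 with most alignments in the lower replicate of each interval and those of 10 or more alignments with 10 or more reads, and positions named are among the 10 with most reads. The sites and units given beside them were chosen after their values were seen. On simulated data, 89.6% of islands with a mean of 15 alignments and 100% of those with 30 or 60 were found. The simulated libraries were drawn independently over an even background, unlike the replicates here. A density ratio of 4 drawn as counts came back as 3.95, which checks the formula only. Alternatives changed the chaining gap, minimum, alignment end, counting of reads, read window, oligo and background stretch, and left out each replicate.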

Additional observations from a re-analysis of the deposited data

How the results depend on the processing

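No paired analysis was possible because the oligo groups that were compared have 1 library each, and the CLIP replicates form a single group. The count of 17 islands was 15 to 21 with gaps of 25 and 100 nt, alignment ends in place of midpoints, or reads, and 17 to 20 without either replicate. A minimum of 20 left 5 islands, and a gap of 300 nt gave 28, which joins islands by construction. The CLIP density ratio of 3.93 was 4.25 by reads, 16.9 against the outer 200 kb, 5.38 against the rest of chromosome 13, and 3.82 to 4.02 without either replicate. The share of islands with 3'READS reads ran from 5.88% to 35.3% over its alternatives, and from 10% to 11.8% without either replicate. The share of alignments in the part nearest the 3′ end was 14.7%, and 13.3% to 15.8% without either replicate, but 29.6% by the 5′ end of alignments and 28.7% with no minimum width, which take in more alignments. No histone island reached 50 alignments in the lower replicate, so that minimum gave no value.

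The 3'READS density ratio turned its direction. For CU5T45 it was 0.753, and 1.17 with positions counted once, 1.06 against the outer 200 kb, 2.18 against the rest of the chromosome and 0.502 without the most used position. For oligo(dT)10-25 it was 0.663, and 1.22, 0.581, 1.83 and 0.59 in the same order. The oligo ratio of 1.11 became 1.01 with positions counted once, 0.834 without the most used position and 0.967 at positions inside islands. The cause was not tested, except that the background stretches hold different numbers of reads. With few reads and alignments per island, depth limits each count here.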
